A study of Mus musculus with 8 samples.

Results

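Heat shock chaperones bind unfolded or damaged proteins and help them refold, and many of their genes are switched on by the transcription factor HSF1 when cells meet heat, oxidants or misfolded protein. HSP70 proteins work in cycles of ATP binding with J-domain partners that deliver clients and exchange factors that release them, HSP90 acts on partly folded clients such as kinases and receptors, and the HSP60-HSP10 chamber folds proteins imported into mitochondria. In the liver, hepatocytes make and secrete large amounts of protein and carry many mitochondria, and chaperone genes are expressed there without heat as well. The 10 genes described here, Hspa1a, Hspa1b, Dnajb1, Hsph1, Bag3, Hspb1, Hspa8, Hsp90aa1, Hspd1 and Hspe1, were chosen by their symbols, and all 10 were found among the 33212 genes of the count table.

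RNA-seq libraries were made from liver of 4 Nnmt KO mice and 4 control mice. Nnmt KO mice, labelled Nnmt LKO, were male Alb-Cre::Nnmt flox/flox mice, in which Cre under the albumin promoter is meant to delete Nnmt in hepatocytes, and in which cells it was deleted was not tested. Control mice, labelled WT and named Control in the count table, were male Nnmt flox/flox mice, for which no Cre is named, so the deletion and the Cre transgene cannot be told apart. The strain of both groups was C57BL/6, their age is not given in the sources used here, and both were fed for 8 weeks on an MCD diet, which lacks methionine and choline and damages the liver. Nnmt encodes the enzyme that methylates nicotinamide with S-adenosylmethionine, and the comparison asks how this deletion alters liver RNA on this diet. As the table's columns give the genotype and not the mouse, letters from a to d name the libraries of each genotype, and no mouse of one group is paired with a mouse of the other.

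Total counts per library ran from 75020072 to 87934362, and 3 counts correspond to at most 0.04 CPM (counts scaled to a fixed library total, here with edgeR's TMM factors). Within a genotype, pairs of libraries differed by a chi-square per degree of freedom of 39.9 to 248, so none was a copy of another. Nnmt KO library a stood apart from the rest of its group. Its TMM factor was 1.21, against 0.952 to 0.977 in Nnmt KO libraries b to d and 0.876 to 1.06 in the control libraries. The 8 hepatocyte markers, of which Alb was the most abundant, summed to 67119 CPM in this library and to between 83144 and 129383 CPM in the other 7 libraries. The 7 macrophage markers analysed, led by Lyz2, summed to 1055 CPM in it, to between 591 and 631 CPM in Nnmt KO libraries b to d and to between 464 and 963 CPM in the control libraries, where control library d was highest. The 8 stellate cell and fibroblast markers, led by Dcn, summed to 905 CPM in Nnmt KO library a, against 470 to 519 CPM in Nnmt KO libraries b to d and 359 to 560.2 CPM in the control libraries. In bulk liver, fewer cells of a type and less RNA per cell cannot be told apart.

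Nnmt (ENSMUSG00000032271, chromosome 9, 48591877 to 48605153, minus strand) was measured first as a check of the labels. It was at 31.8, 44.8, 68.9 and 83.0 CPM in libraries a to d of Nnmt KO mice and at 112, 224, 134 and 84.9 CPM in libraries a to d of control mice. Every Nnmt KO library lay below every control library, with KO library d and control library d close together. On the log2 scale the fitted difference of Nnmt KO from control was -1.28, with a standard error of 0.33 (adjusted p = 0.123 by edgeR's quasi-likelihood test and 0.00467 by DESeq2's Wald test, each over all tested genes).

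For 9 of the 10 chaperone genes the RNA levels of the genotypes overlapped, and the 95% interval of the log2 fold change held 0. By edgeR's test, 0 of 10 passed an adjusted p of 0.05, against 49 of 15291 tested genes (0.32%). DESeq2 also called 0 of 10, against 508 of the 15291. At an unadjusted p under 0.05, edgeR and DESeq2 each called 1 of 10, Bag3, which was lower in Nnmt KO mice. DESeq2 reached that threshold for 2178 of the 15291 tested genes (14.2%). Over all tested genes 1925 (12.6%) reached an unadjusted p under 0.05 by edgeR, 1091 (7.13%) of them lower and 834 (5.45%) higher in Nnmt KO, so 1 of 10 is near the share over all genes. Of these 1925 genes 43.3% were higher, and of those reached with scaling by library size only 56.9%. The libraries of the genotypes did not overlap for 1 of the 10 genes, again Bag3, and for 8.16% of all tested genes. Without Nnmt KO library a, 0 of the 10 had an unadjusted p under 0.05 by edgeR, against 13.3% of all tested genes. In that fit the libraries did not overlap for 2, Bag3 and Hspa8. The 8.16% above is from 4 libraries per genotype, so this count cannot be judged against it. The estimated log2 fold change was negative for 5 of the 10 genes and positive for 5, with a median of -0.04 against 0.02 over all tested genes. All 10 passed the filter on low counts, the lowest group mean being 6.08 CPM for Hspa1a in control mice.

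**Figure D1:**
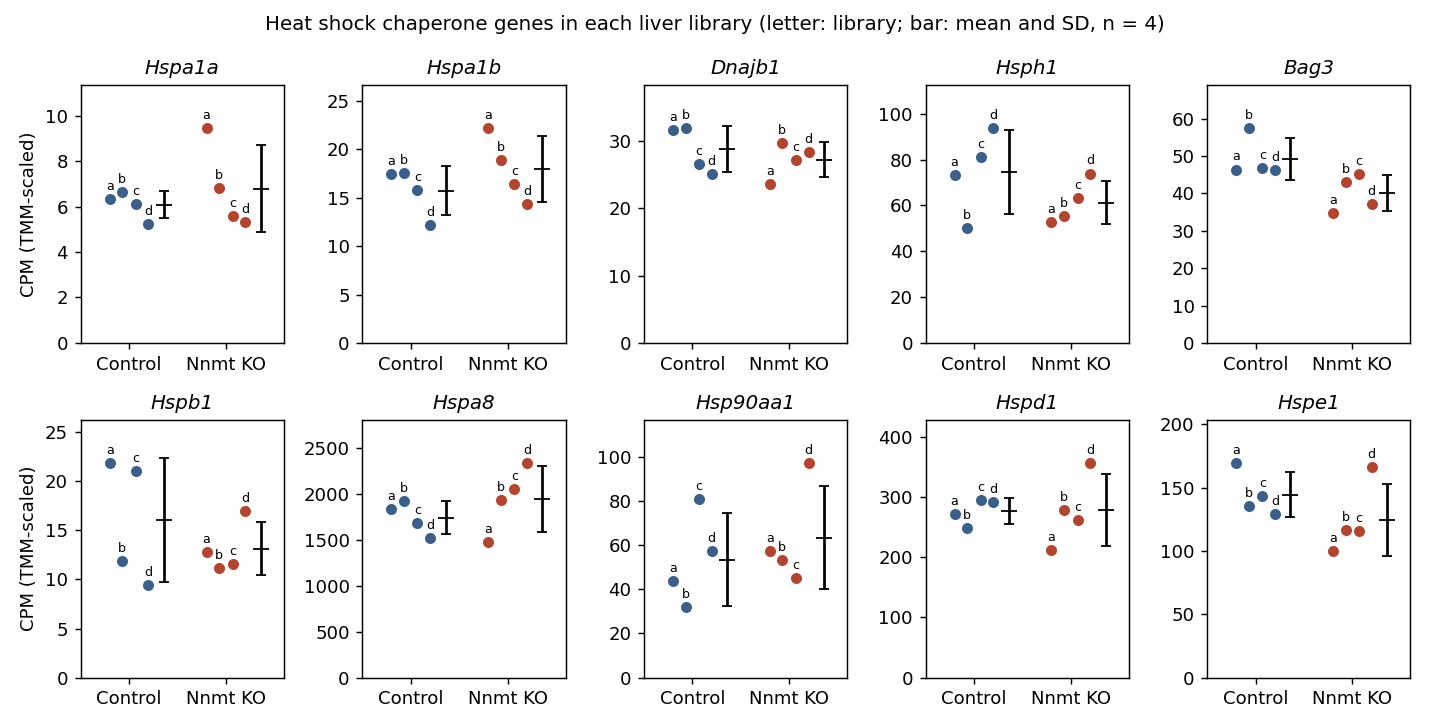
TMM-scaled CPM (vertical axis, from 0) of each of the 10 chaperone genes in the 4 control libraries (blue) and the 4 Nnmt KO libraries (red), with the library's letter above each point and the group's mean and SD beside it. The genotypes overlap for 9 genes, and for Bag3 the Nnmt KO libraries, at 34.9 to 45.3 CPM, lie below the control libraries, at 46.2 to 57.5 CPM.

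Bag3 (ENSMUSG00000030847, chromosome 7, 128523616 to 128546981, plus strand) encodes a co-chaperone that releases ADP from HSP70 and hands clients to autophagy. Its level was 34.9, 43.0, 45.3 and 37.2 CPM in libraries a to d of Nnmt KO mice and 46.4, 57.5, 46.8 and 46.2 CPM in libraries a to d of control mice. The groups were separate but close, since Nnmt KO library c at 45.3 CPM lay next to control library d at 46.2 CPM, and control library b lay far above the other controls. Mean Bag3 was 40.1 ± 4.88 CPM in the KO and 49.2 ± 5.54 CPM in the control group (SD, n = 4 each). Its log2 fold change of -0.30 had a standard error of 0.12 and a 95% interval from -0.56 to -0.03 (edgeR, unadjusted p = 0.0313, adjusted p = 0.333). Without Nnmt KO library a it was -0.23 (edgeR, unadjusted p = 0.0831, adjusted p = 0.451), without Nnmt KO library d -0.26 (unadjusted p = 0.0722, adjusted p = 0.499) and without control library b -0.20 (unadjusted p = 0.123, adjusted p = 0.63). Over 12 alternative fits the adjusted p of Bag3 ran from 0.278 to 0.63. Bag3 is the 1 gene of the 10 on chromosome 7, where the median over 1154 tested genes was -0.14 on the log2 scale, against -0.03 to 0.09 on the other autosomes. The 189 tested genes that start within 10 Mb of Bag3 had a median of -0.28, and 48.1% of them had a lower log2 fold change than Bag3. This window was chosen after the values were seen, and its part in the difference of Bag3 was not tested.

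The inducible cytosolic HSP70 is encoded by a pair of neighbouring genes on the minus strand of chromosome 17, Hspa1a (ENSMUSG00000091971, 34969190 to 34972156) and Hspa1b (ENSMUSG00000090877, 34956436 to 34959238). Hspa1a was at 9.46, 6.83, 5.58 and 5.31 CPM in libraries a to d of Nnmt KO mice and at 6.32, 6.64, 6.12 and 5.24 CPM in libraries a to d of control mice. Hspa1b was at 22.2, 18.9, 16.4 and 14.4 CPM in Nnmt KO and at 17.5, 17.5, 15.8 and 12.1 CPM in libraries a to d of control mice. Both genes were highest in Nnmt KO library a and lowest in control library d, and the genotypes overlapped. EdgeR's log2 fold change was 0.16 (95% interval -0.26 to 0.59, edgeR, adjusted p = 0.77) for Hspa1a and 0.19 (-0.16 to 0.55, adjusted p = 0.664) for Hspa1b. Without Nnmt KO library a, the estimate for Hspa1a was -0.04 and that for Hspa1b 0.07. Of the 150-base stretches of the annotated transcripts, 38.1% of those of Hspa1a also occurred in Hspa1b, and 40.5% of those of Hspa1b in Hspa1a, so the authors' counting could have split reads between them. With both genes' counts added, the log2 fold change was 0.18 (standard error 0.16, 95% interval -0.17 to 0.54, edgeR, adjusted p = 0.676). The ratio of Hspa1a to Hspa1b counts was 0.374 ± 0.0367 (SD, n = 4) in Nnmt KO and 0.39 ± 0.03 (SD, n = 4) in control mice, a difference smaller than its spread.

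The RefSeq promoters of the pair, from the GRCm38.p6 table, are shown because the genes varied together across libraries and their starts are nearly alike. Over the 250 bases before the start, 247 were identical (98.8%). Each holds a 2-unit heat shock element, the inverted repeat that HSF1 is known to bind, which is set in capitals. The sequences lie on the minus strand at chr17:34972157-34972406 and chr17:34959239-34959488.
Hspa1a: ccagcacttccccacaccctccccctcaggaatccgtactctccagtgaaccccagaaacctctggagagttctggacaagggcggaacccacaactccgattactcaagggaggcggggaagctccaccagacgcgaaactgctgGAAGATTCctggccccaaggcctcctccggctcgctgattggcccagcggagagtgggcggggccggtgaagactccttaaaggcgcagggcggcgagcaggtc
Hspa1b: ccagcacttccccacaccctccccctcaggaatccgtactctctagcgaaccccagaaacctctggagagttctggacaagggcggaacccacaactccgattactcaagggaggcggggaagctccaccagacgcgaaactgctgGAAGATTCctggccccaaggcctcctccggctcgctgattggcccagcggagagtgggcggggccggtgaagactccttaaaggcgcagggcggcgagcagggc

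Dnajb1 (ENSMUSG00000005483, chromosome 8, 83608193 to 83612653, plus strand) encodes HSP40, the J-domain partner that stimulates the ATPase of HSP70. It varied little, between 23.6 and 29.7 CPM in Nnmt KO and between 25.1 and 32.0 CPM in control libraries. Its log2 fold change was -0.08 (95% interval -0.34 to 0.18, edgeR, adjusted p = 0.808), which puts its ratio of Nnmt KO to control between 0.788 and 1.13. Hsph1 (ENSMUSG00000029657, chromosome 5, 149614287 to 149636376, minus strand) encodes HSP110, a nucleotide exchange factor of HSP70 that also takes part in pulling proteins out of aggregates. Hsph1 was at 52.8, 55.3, 63.0 and 73.9 CPM in libraries a to d of Nnmt KO mice and at 73.1, 50.0, 81.3 and 93.8 CPM in libraries a to d of control mice. The lowest of the 8 libraries was control b, so the groups overlapped although the other 3 control libraries were above Nnmt KO libraries a to c. Its log2 fold change was -0.28 (standard error 0.18, 95% interval -0.68 to 0.12, edgeR, adjusted p = 0.551). Without control library b it was -0.42 (edgeR, unadjusted p = 0.0146, adjusted p = 0.314), against a range of 0.314 to 0.821 for the adjusted p over 12 alternatives. Without control library d the log2 fold change of Hsph1 was -0.15.

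Hspb1 (ENSMUSG00000004951, chromosome 5, 135887919 to 135889563, plus strand) encodes the small heat shock protein HSP27 (HSP25 in mice), which holds unfolded proteins without using ATP. It was at 12.8, 11.2, 11.6 and 17.0 CPM in libraries a to d of Nnmt KO mice and at 21.9, 11.9, 21.0 and 9.43 CPM in libraries a to d of control mice. The control mice fell into a high pair, a and c, and a low pair, b and d, and of the low pair, b lay among the Nnmt KO libraries and d below them. The 95% interval of its log2 fold change of -0.29 was therefore wide, from -0.86 to 0.28 (edgeR, adjusted p = 0.683). The estimate was -0.08 without control library a and -0.48 without control library d.

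Hspa8 (ENSMUSG00000015656, chromosome 9, 40800984 to 40810087, plus strand) encodes HSC70, the HSP70 that cells make at all times. It was at 1472, 1931, 2047 and 2337 CPM in libraries a to d of Nnmt KO mice and at 1836, 1921, 1683 and 1518 CPM in libraries a to d of control mice. Nnmt KO library a was the lowest of the 8 libraries and the other Nnmt KO libraries were the 3 highest. The log2 fold change was 0.16 (standard error 0.16, 95% interval -0.20 to 0.52, edgeR, adjusted p = 0.725). Without Nnmt KO library a the genotypes did not overlap and the log2 fold change was 0.27 (edgeR, unadjusted p = 0.0648, adjusted p = 0.413). Without Nnmt KO library d the log2 fold change of Hspa8 was 0.06. Over 12 alternatives its adjusted p lay between 0.413 and 0.916. The genotypes did not overlap either when counts were scaled by library size only.

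Hsp90aa1 (ENSMUSG00000021270, chromosome 12, 110690605 to 110702728, minus strand) encodes the inducible cytosolic HSP90. It was at 57.4, 53.4, 45.3 and 97.3 CPM in libraries a to d of Nnmt KO mice and at 43.7, 31.9, 80.7 and 57.3 CPM in libraries a to d of control mice. Nnmt KO library d was the highest of the 8 libraries and control library b the lowest. For Hsp90aa1 the log2 fold change was 0.25 (standard error 0.29, 95% interval -0.39 to 0.88, edgeR, adjusted p = 0.764), and it was -0.04 without Nnmt KO library d. Its constitutive relative Hsp90ab1 was steady, at 1087 ± 36.2 CPM (SD, n = 4) in Nnmt KO and 1123 ± 77.1 CPM (SD, n = 4) in control mice, with a log2 fold change of -0.05 (edgeR, adjusted p = 0.9) that turned to 0.01 with scaling by library size only. The counts of Hsp90aa1 relative to Hsp90ab1, a ratio on which the scaling has no effect, ran from 0.0407 to 0.0889 in Nnmt KO and from 0.029 to 0.0773 in control libraries.

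The mitochondrial chaperonin genes lie head to head on chromosome 1, Hspd1 (HSP60, ENSMUSG00000025980, 55077835 to 55088243) on the minus strand and Hspe1 (HSP10, the lid of the folding chamber, ENSMUSG00000073676, 55088132 to 55091307) on the plus strand. Hspd1 was at 213, 278, 262 and 357 CPM in libraries a to d of Nnmt KO mice and at 272, 249, 294 and 292 CPM in libraries a to d of control mice. The Nnmt KO libraries held both the lowest and the highest value, around the same mean, 277 ± 59.8 CPM in Nnmt KO and 277 ± 21.2 CPM in control mice (SD, n = 4 each). Hspe1 was at 100.2, 116, 116 and 166 CPM in libraries a to d of Nnmt KO mice and at 169.7, 135, 143 and 129 CPM in libraries a to d of control mice. Nnmt KO libraries a to c lay below the controls and library d among them. Between genotypes, the log2 fold change was 0.00 (95% interval -0.33 to 0.34, edgeR, adjusted p = 0.994) for Hspd1 and -0.21 (-0.56 to 0.14, adjusted p = 0.626) for Hspe1. Without Nnmt KO library d, that of Hspe1 was -0.38 (edgeR, unadjusted p = 0.0153, adjusted p = 0.315), against 0.315 to 0.934 for the adjusted p over 12 alternatives. Without control library a the log2 fold change of Hspe1 was -0.11. The ratio of Hspe1 to Hspd1 counts was 0.471, 0.418, 0.443 and 0.466 in Nnmt KO and 0.625, 0.545, 0.486 and 0.443 in control libraries a to d. These ratios overlapped at control library d. Exons of the pair overlap by 112 bases (chromosome 1, 55088132 to 55088243) on opposite strands, and as it is not stated whether the counting used strand, reads from that stretch could have gone to either gene.

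**Figure D2:**
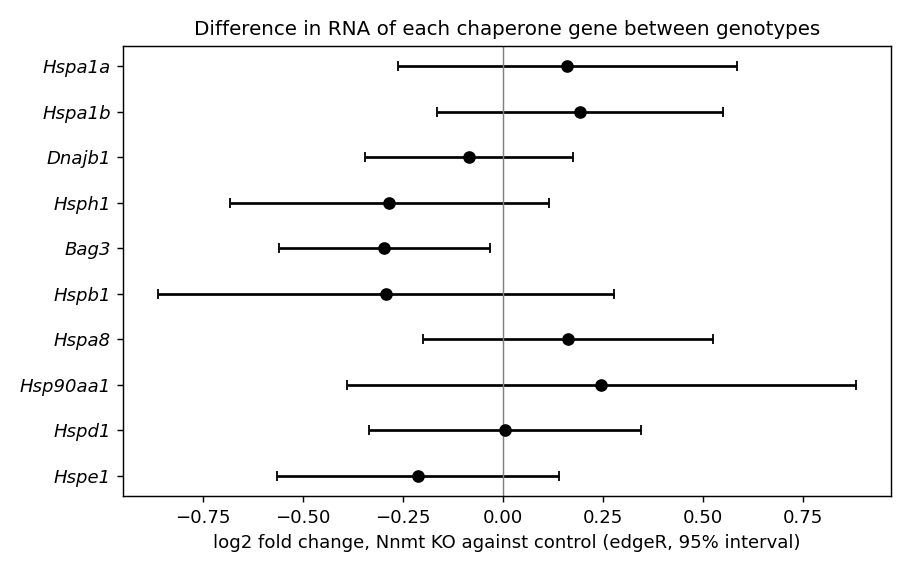
Log2 fold change of each of the 10 chaperone genes in Nnmt KO against control mice (points) with its 95% interval from edgeR's fit (bars), with 4 libraries in each genotype. The interval holds 0 for 9 genes and runs from -0.56 to -0.03 for Bag3.

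Levels were compared between genes on a scale of CPM per kilobase of exon. The length was that of the union of a gene's exons in GENCODE's annotation M21. This union can be longer than the transcripts present, by unlike amounts per gene, so the order of genes with close values is uncertain. In control mice, Hspa8 was highest among the 10 at 404 ± 41.3 CPM per kb (SD, n = 4), or 59.3% of the sum of all 10. The chaperonin genes followed, Hspd1 at 105 ± 8.02 and Hspe1 at 98.0 ± 12.1 CPM per kb, which did not differ beyond their spread. Bag3 (19.2 ± 2.16), Hspb1 (15.6 ± 6.13), Hsp90aa1 (13.6 ± 5.33), Hsph1 (10.3 ± 2.54) and Dnajb1 (9.0 ± 1.08 CPM per kb) formed a middle range. Hspa1b at 5.61 ± 0.902 and Hspa1a at 2.05 ± 0.202 CPM per kb were lowest, and since reads could have been split between these 2 genes, their order is uncertain. The inducible HSP70 genes were thus far below the constitutive Hspa8 in these livers. The order in Nnmt KO mice was the same for Hspa8, Hspd1 and Hspe1 at the top, at 453 ± 83.6, 105 ± 22.6 and 84.6 ± 19.4 CPM per kb, and for Hspa1b and Hspa1a at the bottom, at 6.41 ± 1.21 and 2.29 ± 0.639 CPM per kb (SD, n = 4 each). On the same scale, the constitutive Hsp90ab1 was at 374 ± 25.7 CPM per kb in control mice, the mitochondrial HSP70 gene Hspa9 at 192 ± 17.7 and the ER HSP70 gene Hspa5 at 189 ± 36.8 CPM per kb.

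The 10 genes varied between mice of 1 genotype by unequal amounts. The SD of log2 CPM within genotypes was 0.52 for Hsp90aa1 and 0.45 for Hspb1, at percentiles 96.0 and 92.8 of all tested genes, and 0.16 for both Dnajb1 and Bag3, at percentiles 24.3 and 27.2. Over all tested genes the median SD was 0.22. Library Nnmt KO a held the lowest of 8 values for 5 of the 10 genes and the highest for Hspa1a and Hspa1b, and library Nnmt KO d held the highest value for Hspa8, Hsp90aa1 and Hspd1.

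As a description, Pearson's r was taken between log2 CPM deviations from the genotype means over the 8 libraries for the 45 pairs of the 10 genes. These deviations share each library's scaling factor and cell makeup. It was above 0.7 for 5 pairs and below 0 for 19. Hspa1a and Hspa1b, which share sequence, had the highest r at 0.90 (Spearman's rho 0.93), and 0.88 without the 2 libraries farthest from the median of Hspa1a. Hspd1 and Hspe1 had an r of 0.78 (rho 0.67), which fell to -0.06 without the 2 libraries farthest from the median of Hspd1 and so rested on those libraries. Between Hspa1a and Hspd1 r was -0.83 (rho -0.74), or -0.31 without the 2 farthest libraries, between Hspa1b and Hspd1 it was -0.78 (rho -0.76), or -0.70 without them, and between Hspa1b and Hsph1 it was -0.79 (rho -0.93), or -0.54 without them. With the other chaperonin gene, Hspe1, r was -0.55 for Hspa1a, which turned to 0.42 without the 2 farthest libraries, and -0.38 for Hspa1b. Of the other pairs above 0.7, Hsph1 and Hsp90aa1 had an r of 0.75, or 0.71 without the 2 farthest libraries. For Dnajb1 and Hspa8 it fell from 0.80 to 0.39 without them, and for Hspa8 and Hspe1 from 0.78 to 0.37. Between Hsph1 and Hspd1 r was 0.69, or 0.86 without the 2 farthest libraries. With r below 0 for 19 of the 45 pairs, the 10 genes thus did not vary as 1 block across these livers.

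Outside all lists, the 10 tested genes whose log2 CPM was most like the mean of the standardised log2 CPM of the chaperone genes over the 8 libraries were Mnd1, Tmem258, Gng5, Rps23, Trim39, Rpl35a, Rmdn1, Rps25, Rpl7 and Rpl35. Their Pearson's r with that mean was 0.95 to 0.98. With scaling by library size only it was 0.56 for Mnd1 and 0.77 to 0.97 for the other 9. The mean itself was lowest in Nnmt KO library a (-0.52) and highest in Nnmt KO library d (0.47), so its extremes lay within 1 genotype.

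Other chaperone genes were taken from 8 lists that hold 86 genes, of which 80 were tested, 4 had too few counts, Hspa14 was left out because its symbol stands for 2 identifiers, and Pfdn6 was not analysed here. By edgeR's test, 0 of 80 passed an adjusted p of 0.05, and 11 of 80 (13.8%) had an unadjusted p under 0.05, 7 lower and 4 higher in Nnmt KO mice, against 12.6% of all tested genes. DESeq2 called 1 of 80 at an adjusted p under 0.05, Hspa2, and 12 at an unadjusted p under 0.05. Its counts over all 15291 tested genes were 508 and 2178 (14.2%). The median log2 fold change of the 80 genes was -0.01. The count of lower genes was 4 with scaling by library size only, 3 without Nnmt KO library a, 4 without control library b and 1 without control library a.

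Among the heat shock factors, Hsf1, which drives the heat shock response, was at 14.6 ± 0.799 CPM in Nnmt KO and 15.7 ± 1.71 CPM in control mice (SD, n = 4 each), with a log2 fold change of -0.10 (edgeR, adjusted p = 0.746). Of 3 tested factors, 1 had an unadjusted p under 0.05, Hsf4, a factor known for its role in the lens, with a log2 fold change of -0.45 (edgeR, unadjusted p = 0.0297, adjusted p = 0.328) and overlapping groups. The unadjusted p of Hsf4 was 0.0632 without Nnmt KO library a, 0.0765 without Nnmt KO library b, 0.125 without control library a, 0.0854 without control library b and 0.0509 with scaling by library size only.

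Of 7 other HSP70 and HSP110 genes, 2 reached an unadjusted p under 0.05 by edgeR and both were higher in Nnmt KO mice. Hspa2, a testis-rich HSP70 gene that is low in liver, was at 1.98, 2.65, 2.71 and 2.62 CPM in libraries a to d of Nnmt KO mice and at 0.772, 1.81, 1.15 and 1.27 CPM in libraries a to d of control mice. Every Nnmt KO library was above every control library, and the log2 fold change was 0.99 with a standard error of 0.27 (edgeR, unadjusted p = 0.0037, adjusted p = 0.147). DESeq2's adjusted p for Hspa2 was 0.0176, and over 12 alternatives it ran from 0.0176 to 0.356. Hspa4l, an HSP110 relative, had a log2 fold change of 0.40 (edgeR, adjusted p = 0.337), and its unadjusted p was between 0.0518 and 0.0925 without any 1 of Nnmt KO libraries a and d and control libraries a, b and d, and 0.0687 with scaling by library size only. Hspa9, which pulls proteins into mitochondria, was at -0.08 on the log2 scale (edgeR, adjusted p = 0.823). Of 8 other BAG and HSP70 co-chaperone genes, Bag4 and Bag2 had an unadjusted p under 0.05, with log2 fold changes of 0.35 (edgeR, adjusted p = 0.245) and 0.51 (adjusted p = 0.37). Unlike Bag3, both were higher in Nnmt KO mice. Bag2 had an unadjusted p of 0.134 without Nnmt KO library c, 0.0946 without control library b, 0.061 without control library c and 0.0662 with scaling by library size only. In the co-chaperone list 1 gene was lower without control library d.

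In the list of Hsp90ab1 and HSP90 co-chaperones, 3 of 14 tested genes had an unadjusted p under 0.05. All 3 were co-chaperone genes, lower in Nnmt KO mice and without overlap of libraries. Fkbp4, a prolyl isomerase of steroid receptor complexes, was at 121, 154, 137 and 134 CPM in libraries a to d of Nnmt KO mice and at 198, 163, 162 and 160.0 CPM in libraries a to d of control mice, a log2 fold change of -0.32 (edgeR, unadjusted p = 0.0197, adjusted p = 0.285). Stip1, the HOP adaptor that links HSP70 to HSP90, had a log2 fold change of -0.27 (edgeR, adjusted p = 0.338) and Ahsa1, which stimulates the ATPase of HSP90, of -0.23 (adjusted p = 0.375). Without control library a, the highest library for Fkbp4 and Stip1, 0 of these 3 genes had an unadjusted p under 0.05. When Nnmt KO library a was left out, the unadjusted p was 0.0463 for Fkbp4, 0.0831 for Stip1 and 0.104 for Ahsa1. It was also above 0.05 for Stip1 without Nnmt KO library b, Nnmt KO library c or control library d (0.0553 to 0.0687) and for Ahsa1 without Nnmt KO library c or control library b, c or d (0.0602 to 0.0831). With scaling by library size only it was 0.0747 for Stip1 and 0.118 for Ahsa1. The count of higher genes in this list was 1 with that scaling, without Nnmt KO library a and without control library b.

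None of 15 other cytosolic J-domain genes and none of 6 other small heat shock protein genes reached an unadjusted p under 0.05 by edgeR, with median log2 fold changes of 0.05 and 0.23. DESeq2's test gave the same counts. With 1 library left out, 1 J-domain gene was higher without control library c or d and 1 small heat shock protein gene lower without Nnmt KO library b. Of 13 tested genes of the cytosolic chaperonin TRiC and of prefoldin, 1 had an unadjusted p under 0.05, the TRiC subunit gene Cct7, at 127 ± 8.25 CPM in Nnmt KO and 159 ± 13.1 CPM in control mice (SD, n = 4 each). Cct7 had a log2 fold change of -0.31 (edgeR, unadjusted p = 0.0127, adjusted p = 0.245), and the libraries did not overlap. Its unadjusted p was 0.0528 without control library a, and the count of higher genes in this list was 1 with scaling by library size only, without Nnmt KO library a and without control library c. Of 15 other mitochondrial chaperone and protease genes, 12 had a negative log2 fold change and 2 an unadjusted p under 0.05. Clpb, a mitochondrial disaggregase, was at 54.7, 79.2, 77.0 and 61.8 CPM in libraries a to d of Nnmt KO mice and at 103, 99.7, 87.0 and 87.2 CPM in libraries a to d of control mice, with no overlap and a log2 fold change of -0.47 (edgeR, unadjusted p = 0.0053, adjusted p = 0.173). Clpb also lies on chromosome 7, where the 146 tested genes within 10 Mb had a median of -0.18 and 16.4% of them a lower log2 fold change than Clpb, and the part of this in its difference was not tested. Grpel1, the exchange factor of Hspa9, had a log2 fold change of -0.31 (edgeR, unadjusted p = 0.0303, adjusted p = 0.33), or -0.22 without Nnmt KO library a (unadjusted p = 0.0671), and its unadjusted p was between 0.0527 and 0.0732 without Nnmt KO library b or control library a, b or c.

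**Figure D3:**
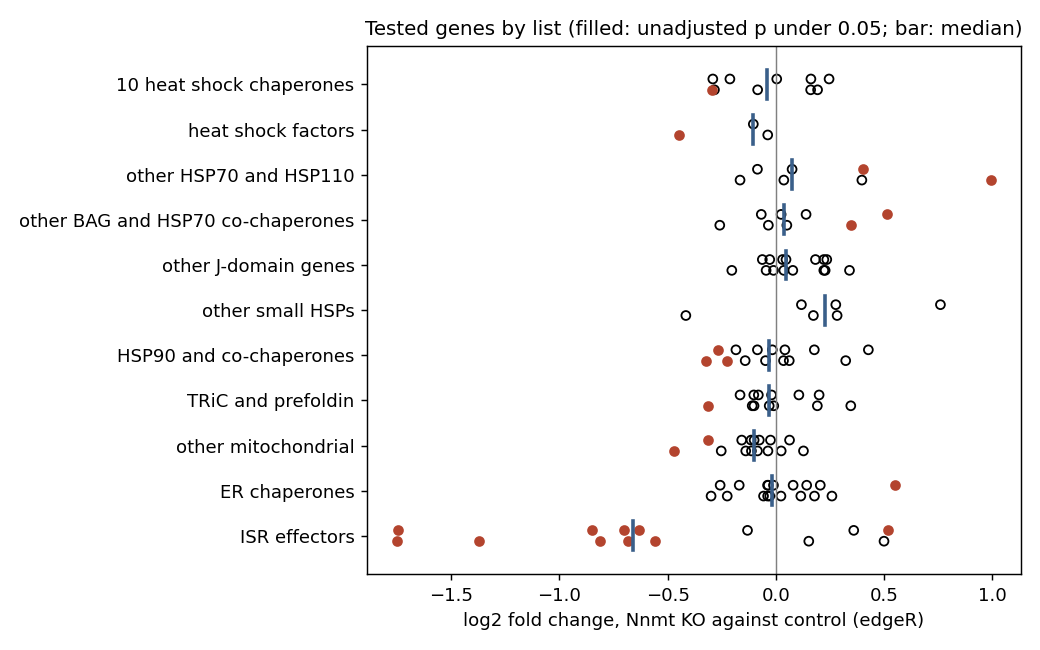
Log2 fold change in Nnmt KO against control mice (horizontal axis) of each tested gene of the 10 heat shock chaperones, 8 other chaperone lists, ER chaperones and effectors of the integrated stress response (ISR). Filled points have an unadjusted p under 0.05 by edgeR and bars mark medians, which lie between -0.10 and 0.23 for the chaperone lists and at -0.66 for ISR effectors.

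Chaperones of the ER and effectors of the ISR, the pathway in which ATF4 is translated when eIF2α is phosphorylated, were set beside the heat shock genes. Of 18 ER chaperone genes, by edgeR 0 passed an adjusted p of 0.05 and 1 had an unadjusted p under 0.05, and the median log2 fold change was -0.02. Hspa5, the ER HSP70 BiP, was at 812 ± 146 CPM in Nnmt KO and 799 ± 155 CPM in control mice (SD, n = 4 each), and Creld2, an ER stress gene, was higher in every Nnmt KO library, with a log2 fold change of 0.55 (edgeR, adjusted p = 0.121; DESeq2, adjusted p = 0.018, the lowest of 12 alternatives, which reached 0.343). Of 14 ISR effectors, 9 were lower and 1 was higher at an unadjusted p under 0.05, and 1, Trib3, passed an adjusted p of 0.05 by edgeR, while DESeq2 passed 8. Trib3 was at -1.37 on the log2 scale (edgeR, adjusted p = 0.0188), and its adjusted p was 0.0543 without Nnmt KO library c, 0.0967 without control library a and 0.0658 without control library c. The list's median log2 fold change was -0.66, and those of Atf4, Ddit3 and Nupr1 were -0.56, -0.68 and -1.75. Nupr1 lies on chromosome 7 within 10 Mb of Bag3, and the part of this in its difference was not tested. Fosb, Arntl and Cyp2e1, named below, are also on chromosome 7. Values of the ISR genes were known when this list was written, so its count is no independent evidence of a direction. The count of higher ISR genes was 0 without Nnmt KO library c, without control library c and with scaling by library size only, and 2 with DESeq2's size factors and with DESeq2's test. Of the ER chaperone genes 1 was lower without Nnmt KO library d or control library d and 2 were higher without control library c. Whether the chaperone genes differed from these genes in their response was not tested.

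Handling, time of day and cell makeup can move chaperone RNA, and the genes that report on them were read in the same libraries. Of 16 immediate early genes, Fosb was lower, with a log2 fold change of -1.50 from 1.31 CPM in control mice (edgeR, adjusted p = 0.216), and Btg2 was higher by 0.53 (adjusted p = 0.368), both at an unadjusted p under 0.05 and with overlapping groups. DESeq2 called 3 of the 16 at that threshold, 1 lower and 2 higher. Btg2 was at 0.35 without Nnmt KO library c (unadjusted p = 0.148), and its unadjusted p lay between 0.0541 and 0.0975 without Nnmt KO library a or d or control library a or d. Of 14 clock output and cold-inducible genes, 2 with lower and 1 with higher RNA reached that threshold, with log2 fold changes of -0.79 for Arntl, -0.40 for Nr1d1 and 0.33 for Nr1d2. Arntl was at 14.6 CPM in control library d and at 4.22 to 6.29 CPM in the other controls, and without that library its log2 fold change was -0.24 (edgeR, unadjusted p = 0.297). Its unadjusted p was between 0.0505 and 0.11 without any 1 of the Nnmt KO libraries or without control library c, 0.0713 with scaling by library size only and 0.0594 without a filter. For Nr1d1 the log2 fold change was -0.24 without control library a (unadjusted p = 0.207) and -0.26 without Nnmt KO library d (unadjusted p = 0.126), with an unadjusted p of 0.0524 to 0.0849 without Nnmt KO library a or c or control library d, 0.0511 with DESeq2's size factors, 0.125 with scaling by library size only and 0.0584 without a filter. Nr1d2 had an unadjusted p of 0.0733 to 0.127 without Nnmt KO library c or d or control library b or d. Per1, which stress hormones can induce, had a log2 fold change of 0.45 (edgeR, adjusted p = 0.467), or 0.73 without control library b (unadjusted p = 0.00368), and an unadjusted p of 0.0219 with scaling by library size only, and the cold-inducible Cirbp of -0.23 (adjusted p = 0.639). The part of these genes' differences in the values of the chaperone genes was not tested.

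Cell markers were read in the same way. Of 8 hepatocyte markers 1 was lower, Cyp2e1 (log2 fold change -0.67, edgeR, adjusted p = 0.328; unadjusted p of 0.0602 to 0.101 without Nnmt KO library d or control library a or b). DESeq2 called 2 of the 8 lower at an unadjusted p under 0.05. The hepatocyte markers summed to 102688 ± 24476 CPM in Nnmt KO and 105326 ± 19786 CPM in control mice (SD, n = 4 each), with Alb at 48513 CPM or more in each library. Of 8 stellate cell markers, 3 were higher at an unadjusted p under 0.05, namely Dcn, Reln and Lrat with log2 fold changes of 0.41, 0.41 and 0.34. Their unadjusted p was 0.063, 0.0672 and 0.0999 without Nnmt KO library a. It was also between 0.061 and 0.0718 for Dcn without Nnmt KO library d or control library a or b, between 0.0647 and 0.117 for Reln without Nnmt KO library b or c or control library a or c, and between 0.0533 and 0.102 for Lrat without Nnmt KO library b or d or control library a, b or d. With scaling by library size only it was 0.0546 for Dcn and 0.0873 for Lrat. Of 6 cholangiocyte markers 1 was higher, Epcam (0.80, or 0.55 with an unadjusted p of 0.0808 without Nnmt KO library a, and an unadjusted p of 0.0531 to 0.0681 without Nnmt KO library d or control library a, b or d), and the sum of the list, led by Spp1, ran from 89.4 to 279 CPM in Nnmt KO and from 50.3 to 167 CPM in control libraries. T, B and NK cell markers summed to between 4.64 and 6.42 CPM in Nnmt KO and between 3.38 and 4.09 CPM in control libraries, without overlap, and 2 of 8, Cd8a and Cd3g, were higher at an unadjusted p under 0.05, with log2 fold changes of 1.44 (edgeR, adjusted p = 0.106; DESeq2, adjusted p = 0.00349) and 1.17 (edgeR, adjusted p = 0.194; DESeq2, adjusted p = 0.0428). DESeq2 called 3 of these 8 T, B and NK cell markers at an unadjusted p under 0.05, all higher. Cd8a was at most 1.21 CPM and Cd3g at most 1.19 CPM in any library. Of the 8 markers, 7 had a positive and 1 a negative log2 fold change. The T cell marker Cd3e, named after its values were seen, was at 0.08 with overlapping groups (edgeR, unadjusted p = 0.877). Of 7 macrophage, 8 endothelial and 5 tested neutrophil markers, 0 reached an unadjusted p under 0.05 by edgeR and 1, the macrophage gene Marco (named after its values were seen), by DESeq2, and of 5 erythroid markers 1, Alas2, was lower (-0.32), which DESeq2 did not call. Alas2 was at -0.21 without Nnmt KO library a (unadjusted p = 0.121), and its unadjusted p was between 0.0503 and 0.143 without Nnmt KO library b or d or control library a, b or d, 0.0531 with DESeq2's size factors and 0.0557 without a filter. Ly6g had 0 counts in each library, and Adgre1 was not analysed here.

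Heat shock elements were sought in the RefSeq windows of 250 bases before to 50 bases after each start, of which 11 belong to 8 of the 10 genes. No window for Hspa8 or Hsp90aa1 was in the table. The 2-unit forms GAANNTTC and TTCNNGAA, each its own reverse complement, occurred in 8 of the 11 windows, from 7 of the 8 genes, against 15.1% of all 32851 windows, and neither window of Dnajb1 nor the second of Hspd1 had a match. The 3-unit forms GAANNTTCNNGAA and TTCNNGAANNTTC, which are reverse complements of each other and contain the 2-unit forms, occurred in 4 of the 11 windows, 2 of Hsph1 that overlap and 1 each of Hspd1 and Hspe1 that share sequence, against 0.603% of all windows. These matches describe the sequence and show no binding. The longest elements are printed with 5 flanking bases on each side and the units with their spacers in capitals, since they lie in the promoters of the HSP110 gene and of the chaperonin pair. That of Hsph1 lies at chr5:149636288-149636300, after the RefSeq start and read on the minus strand. That of the chaperonin pair has 4 units, lies at chr1:55088059-55088076, 72 bases before the start of Hspe1 and 127 bases before a start of Hspd1, and is read on the strand of Hspe1.
Hsph1: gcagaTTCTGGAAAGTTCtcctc
Hspe1 and Hspd1: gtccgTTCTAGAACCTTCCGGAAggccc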

How the data were processed

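Per the labels, liver RNA of each mouse was made into 1 library. The deposited values are whole-number read counts of each gene, not normalized. They state HISAT2 for alignment and quantification, and the submitters' processing notes name HISAT2, StringTie and mm10. The annotation and any use of strand are not given in the sources used here, and 1 library kit is named in the labels and another in the methods.

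Counts were filtered by edgeR's filterByExpr (minimum count 10, 15291 genes kept), scaled by TMM and tested by edgeR 4.0.16's quasi-likelihood test in R 4.3.3, with p-values Benjamini-Hochberg adjusted over all tested genes. Standard errors are those implied by the F statistic. DESeq2 1.42.0, DESeq2's size factors, library size only, no filter and each library left out in turn were the alternatives. The tests were checked on simulated data with planted differences larger than that of any of the 10 genes. That check required the recovery of planted differences and set no limit on false calls. Positions and exon lengths came from GENCODE M21 (GRCm38), which held 99.1% of tested genes. Log2 CPM used a prior of 0.5.

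Named are the 10 genes, Nnmt, up to 4 genes of each other list with the smallest unadjusted p under 0.05, 7 set genes (Hsf1, Hsp90ab1, Hspa9, Hspa5, Atf4, Cirbp, Per1), the 10 genes most like the mean, leading genes of marker sums, Marco, Cd3e and genes left out or without counts. The members and lists were chosen with earlier results of these data known. P-values set the difference between genotypes against the spread between mice, 4 per genotype, which both tools estimate with information from other genes.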

Additional observations from a re-analysis of the deposited data

Results flagged for a closer look

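Dixon's criterion, which compares the gap beside the most extreme library with the range of its group of 4, marked 8 of the 80 groups read, where chance marks about 1 in 20. Of the 8, 5 concern Nnmt KO library a. It had a TMM factor of 1.21 and libraries b to d factors of 0.952 to 0.977, its summed macrophage markers were at 1055 CPM against 591 to 631 CPM (464 to 963 CPM in the control libraries), and its summed stellate cell markers at 905 CPM against 470 to 519 CPM. In the same library Hspa2 was at 1.98 CPM against 2.62 to 2.71 CPM, and Cct7 at 115 CPM against 131 to 133 CPM, the lowest of its group for both.

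Among the heat shock genes, Bag3 was at 57.5 CPM in control library b and at 46.2 to 46.8 CPM in controls a, c and d. The HSP90 co-chaperone gene Fkbp4 was at 198 CPM in control library a, against 160.0 to 163 CPM in the other controls. Hspa5 was at 1030.4 CPM in Nnmt KO library d, while Nnmt KO libraries a to c held 722 to 759 CPM, and this is the library in which Hspa8, Hsp90aa1 and Hspd1 were highest.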

How the results depend on the processing

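No paired analysis was possible because the columns of the count table carry no mouse number. In all 12 alternatives 0 of the 10 chaperone genes passed an adjusted p of 0.05, and in 121 fits of these genes the direction turned 4 times. With a library left out, Hspa1a ran from -0.042 (without Nnmt KO a) to 0.26, Hsp90aa1 from -0.038 (without Nnmt KO d) to 0.52 and Hspd1 from -0.14 (without Nnmt KO d) to 0.11, with -0.03 without control b. The log2 fold change of Nnmt was -1.28 with DESeq2's test, where its adjusted p was 0.00467, and ran from -1.52 to -0.94 with a library left out. Leaving out libraries gave 0 to 1 genes at an unadjusted p under 0.05, with Hspe1 (without Nnmt KO library d) or Hsph1 (without control library b) in place of Bag3, and 1 to 2 genes without overlap. Of all tested genes, 8.08% (without control library a) to 14.1% (without control library c) had an unadjusted p under 0.05 in these fits. So 1 of 10 is near the share over all genes. With scaling by library size only, 2 genes, Bag3 and Hspa8, had libraries without overlap. The share of all tested genes without overlap, 8.16%, is from TMM scaling with all 8 libraries, and these counts cannot be judged against it. The median of the 10 genes lay between -0.12 and 0.00.

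Of the other chaperone genes, 4 were lower at an unadjusted p under 0.05 with scaling by library size only, and 1 to 7 with a library left out. In 420 fits of 35 other named genes the direction turned 4 times. Hsp90ab1 was at 0.0059 with scaling by library size only and ran from -0.081 to 0.018 (without control a) with a library left out, and Hspa5 from -0.11 (without Nnmt KO d) to 0.13, with -0.08 without control b. Over all genes, 49 passed an adjusted p of 0.05 by edgeR, 508 by DESeq2, 30 with DESeq2's size factors, 22 with library size only, 8 without a filter, and 6 to 149 with a library left out. Of genes at an unadjusted p under 0.05, 43.3% were higher in Nnmt KO, and 56.9% with library size only. Apart from fewer libraries where 1 is left out, the cause of these moves was not tested.

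The lowest count of any of the 10 genes was 381. With 4 mice per genotype, the widest intervals were 0.764 to 1.84 for the ratio of Hsp90aa1 and 0.551 to 1.21 for that of Hspb1. The parts of counting error and of spread between mice in these widths were not compared.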

Other observations

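The summed level of the 10 chaperone genes, which Hspa8 dominates, was 557, 700.3, 719 and 873 CPM per kb in libraries a to d of Nnmt KO mice and 724, 700.2, 686 and 620 CPM per kb in control libraries a to d. The extremes of the 8 libraries were both Nnmt KO mice, and the SD was 129 CPM per kb in Nnmt KO and 44.6 CPM per kb in control mice. Whether the spread differs between genotypes was not tested.

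The ratio of Hspe1 to Hspd1 counts, on which library scaling has no effect, was 0.449 ± 0.0245 (SD, n = 4) in Nnmt KO and 0.525 ± 0.0787 (SD, n = 4) in control mice, and the control value at 0.443 lay within the range of Nnmt KO mice.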
